A study of Mus musculus with 6 samples.

Results

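Pulmonary neuroendocrine cells are rare epithelial cells of the airway lining that store peptides and amines in dense-core granules. A group of 9 genes of these cells was followed in whole lungs of mouse embryos: the transcription factors Insm1, Neurod1 and Rfx6, the granule proteins Chga, Chgb, Scg2 and Resp18, and the peptide precursors Calca and Grp. They were taken by symbol from the annotated array table, where each had 1 probe set, so the group is 9 probe sets of 28815, or 9 genes of 21953 distinct symbols. Rfx6 differs from the others in being best known from endocrine cells of the pancreas and gut.

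The 6 arrays came from lungs at stage E14.5 on a mixed C57BL/6 and 129X1,129S1 background. Each of the 3 controls carried Shh-cre alone, and each of the 3 mutants carried Shh-cre with floxed alleles of both Foxp1 and Foxp4 (Foxp1flox/flox, Foxp4flox/flox), so Cre was present in both groups. Shh-cre acts in the epithelium of the developing lung, whereas the RNA was that of whole lung, including cells that do not recombine. The design text counts 3 embryos per group, and its question is how the loss of both forkhead factors affects secretory differentiation of the epithelium.

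Neuroendocrine cells are among the first cell types to differentiate in the airway, and many gather at branch points as innervated clusters called neuroepithelial bodies. Basic helix-loop-helix and zinc finger factors start their programme, and Notch signalling restrains it in neighbouring cells. Granins such as chromogranin A help to form dense-core granules, in which prohormone convertases cut peptide precursors into active hormones. Peripheral neurons also hold dense-core granules and express several of the same genes.

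Values are log2 expression after RMA (robust multi-array average), and array medians lay between 8.21 and 8.23. Of the deleted genes, Foxp4 stood at 10.21 ± 0.05 in controls and 9.80 ± 0.03 in mutants (mean ± SD, n = 3 each), and Foxp1 at 10.91 ± 0.03 and 10.64 ± 0.07. Foxp4 passed the test described next (limma adjusted p = 0.0190) and Foxp1 did not (0.0884). The Foxp4 call was lost without control 2 (limma adjusted p = 0.0797), mutant 2 (0.0876) or mutant 3 (0.0535), and where their probes lie relative to the deleted exons is not known here. Probe sets of 9 epithelial markers were bright, with Sftpc at 12.87, the highest mean of the 9, and Sox2 at 9.40, the lowest. Control 3 carries the mark of a female embryo: it read 12.83 for the X-inactivation transcript Xist, where the other 5 arrays read 6.00 to 6.23. The probe sets of 6 of the 9 genes lay in the dimmest 30% of the array (under 6.93), which describes brightness and not abundance, and no detection values were used.

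Of the 9 genes, 1 rose in mutant lungs (Rfx6), 0 fell and 8 did not pass, at an adjusted p under 0.05 in a limma fit across all 28815 probe sets. Over the whole array 0.774% of probe sets passed, 0.514% higher and 0.260% lower. At an unadjusted p under 0.05 there were 3 of the 9 (Rfx6, Insm1 and Scg2, the last 2 lower), where 11.8% of all probe sets lay. In the authors' deposited table, 1 of the 9 had a q under 5%, again Rfx6, against 1.72% of all probe sets. The 9 genes, and the lists below, were chosen with earlier results of these data known. These shares therefore describe the genes and do not test them as a group. A whole-lung value cannot tell fewer neuroendocrine cells from less RNA per cell.

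**Figure D1:**
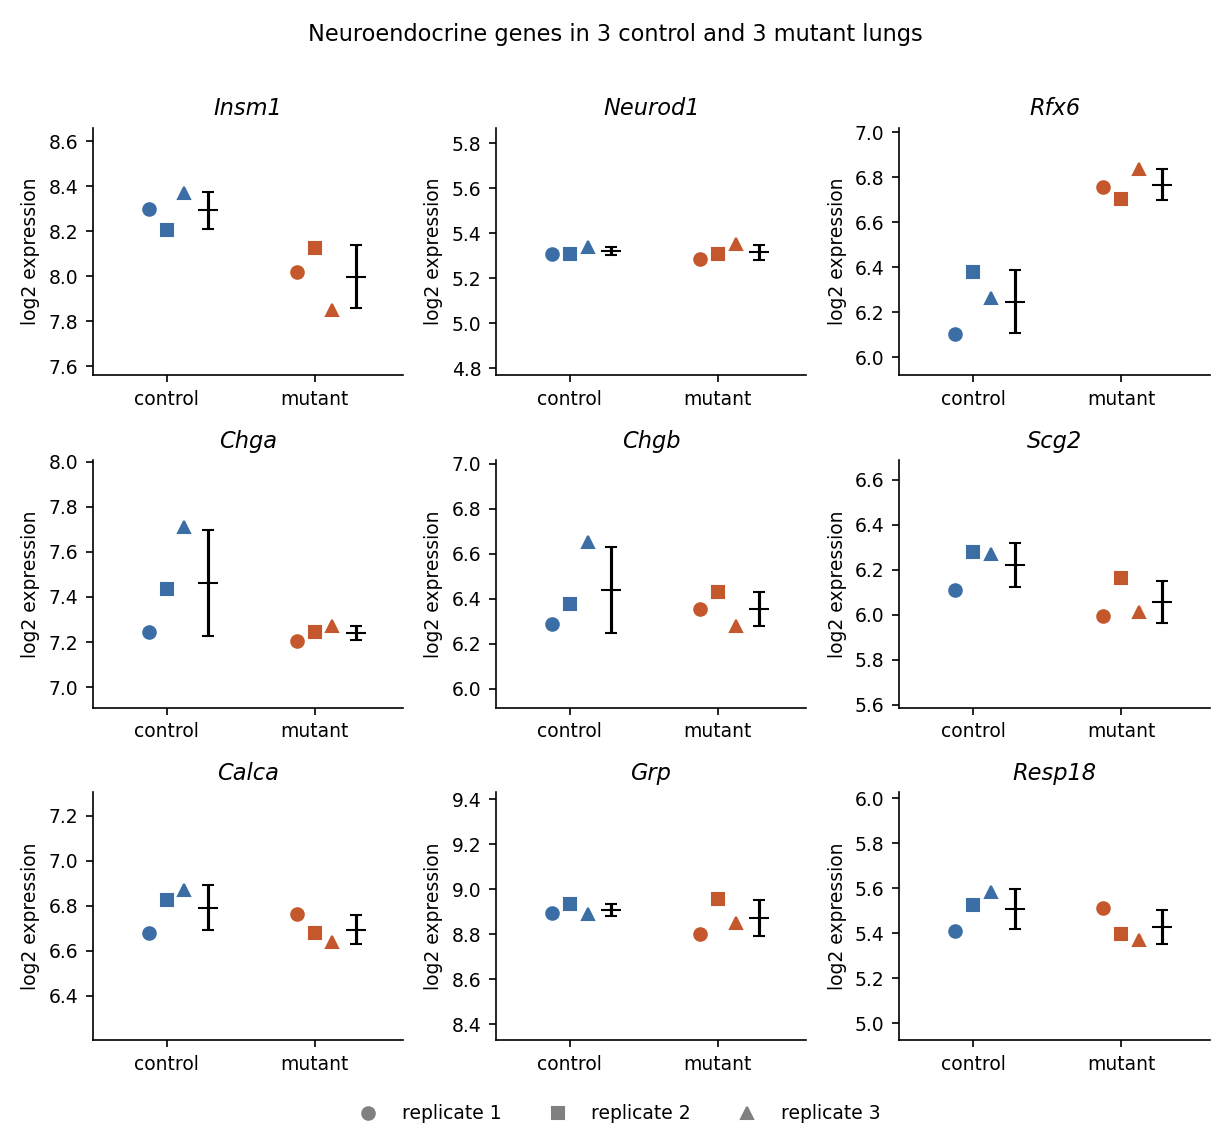
Log2 expression of each of the 9 genes on every array, with controls in blue, mutants in orange and a marker shape for the replicate number. The black bar is the mean ± SD of 3 arrays, and every panel spans the same range of log2 units. Rfx6 is the gene whose mutants all lie above the controls, and Insm1 the one whose mutants all lie below them.

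Rfx6, a winged-helix factor of the RFX family needed for islet cell formation in the mouse pancreas, was the gene that rose. Its probe set (10363090) read 6.10, 6.38 and 6.26 in controls 1 to 3 and 6.76, 6.71 and 6.84 in mutants 1 to 3. Every mutant lay above every control, a separation that 7.83% of all probe sets showed. The means were 6.25 ± 0.14 and 6.77 ± 0.07, a 1.43-fold rise (log2 change 0.52, SE 0.08, 95% interval 0.34 to 0.70, limma adjusted p = 0.0301). The exact permutation p, 2-sided, was 0.1, the smallest that 3 against 3 values allow.

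The rise of Rfx6 did not rest on the female control in size, since it measured 0.53 among the 5 arrays without control 3. Its call was less steady. It passed without control 1 (limma adjusted p = 0.0485) and was lost without control 2 (0.0648), control 3 (0.0950), mutant 1 (0.111), mutant 2 (0.0886) or mutant 3 (0.117), while the change stayed between 0.45 and 0.58. The authors' deposited table gives Rfx6 a fold of 1.43 and a q of 0.897%.

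The promoter of Rfx6 is shown because it belongs to the gene that passed. It is given as the 250 bases before the RefSeq start site on build GRCm38.p6, chr10:51685268-51685517, plus strand.
Rfx6: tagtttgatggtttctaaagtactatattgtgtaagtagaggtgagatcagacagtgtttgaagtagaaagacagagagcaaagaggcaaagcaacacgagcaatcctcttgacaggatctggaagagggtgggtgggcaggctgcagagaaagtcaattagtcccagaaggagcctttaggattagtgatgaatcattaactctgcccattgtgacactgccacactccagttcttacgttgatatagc
The forkhead motif TGTTTAC, searched on both strands, is not in this window. Nor is it in those of the other 6 of the 7 genes with a window searched (Calca, Chga, Chgb, Neurod1, Resp18 and Scg2). It was in 3.17% of 32851 promoter windows of the same length, and its lack here says only that these letters are not in these windows. Insm1 and Grp have no entry in that table.

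The 4 measured protein-coding genes next to Rfx6 on chromosome 10, Fam162b, Gprc6a, Vgll2 and Ros1, had log2 changes between -0.05 and 0.12, with the lowest limma adjusted p at 0.667. The genes whose 6 values followed those of Rfx6 most closely, after each was centred on its mean, were Fam178b, Cd209a and Rprl1. Their root mean square distances to Rfx6 over the 6 arrays were 0.0560, 0.0659 and 0.0707 log2 units, the smallest among 22686 other probe sets of named genes. Rfx6 was both the gene of the 9 with the smallest p and the one with the largest SD over the arrays, so it was the reference in either case. All 3 had higher values in every mutant than in any control, as their closeness to Rfx6 requires.

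Insm1, a zinc finger repressor required for neuroendocrine differentiation, was lower in all 3 mutants. Its probe set (10476814) read 8.30, 8.21 and 8.37 in controls and 8.02, 8.13 and 7.85 in mutants. The groups did not overlap, as for 10.1% of all probe sets in this direction and 18.0% in either, so that 2 of the 9 genes separated the groups. Still, mutant 2 read 8.13 and control 2 8.21. The means were 8.29 ± 0.08 and 8.00 ± 0.14, a log2 change of -0.30 (SE 0.08, 95% interval -0.48 to -0.11) that did not pass the test (limma adjusted p = 0.211). The exact permutation p was again 0.1. Leaving out single arrays gave changes between -0.36 and -0.22, and -0.26 without control 3, with none that passed (limma adjusted p from 0.215 to 0.396).

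Neurod1, a basic helix-loop-helix factor that acts downstream in neuroendocrine and neuronal differentiation, was level across the arrays. Its probe set (10484276) read 5.31, 5.31 and 5.34 in controls and 5.29, 5.31 and 5.35 in mutants. The difference was -0.00372 on the log2 scale (95% interval -0.10 to 0.10, limma adjusted p = 0.980). It is the dimmest of the 9 probe sets.

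Chga encodes chromogranin A, the classical granule marker of neuroendocrine cells. Its probe set (10397882) read 7.24, 7.43 and 7.71 in controls and 7.21, 7.24 and 7.27 in mutants. The mutants lay together at the level of control 1, and control 3 stood well above every other array. The means were 7.46 ± 0.23 and 7.24 ± 0.03, a log2 change of -0.22 (SE 0.11, 95% interval -0.47 to 0.03, limma adjusted p = 0.466). Without control 3 the change was -0.10.

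Chgb, chromogranin B, showed the same lone high array. Its probe set (10476355) read 6.29, 6.38 and 6.65 in controls and 6.36, 6.43 and 6.28 in mutants. Mutants 1 and 2 lay between controls 1 and 3, so the groups overlapped. The log2 change was -0.08 (SE 0.09, 95% interval -0.30 to 0.14, limma adjusted p = 0.758), and it was 0.02, on the other side of 0, without control 3.

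Scg2, secretogranin II, a precursor of the peptide secretoneurin, read 6.11, 6.28 and 6.27 in controls and 5.99, 6.16 and 6.01 in mutants (probe set 10355960). Only mutant 2 lay above a control, namely control 1. The log2 change was -0.16 (SE 0.07, 95% interval -0.32 to -0.00448), with a limma adjusted p of 0.412, and it was -0.14 without control 3.

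Resp18, a protein of the endoplasmic reticulum and granules related to the granule protein encoded by its neighbour Ptprn, read 5.41, 5.53 and 5.58 in controls and 5.51, 5.40 and 5.37 in mutants (probe set 10355836). Mutant 1 lay inside the control range and control 1 inside the mutant range. Its log2 change was -0.08 (SE 0.06, 95% interval -0.23 to 0.07, limma adjusted p = 0.649).

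The promoters of Chgb and Scg2 are shown because both hold the cAMP response element TGACGTCA, in capitals, at a similar distance from the start site. They are the 250 bases before the RefSeq start sites on GRCm38.p6, chr2:132781392-132781641 on the plus strand for Chgb and chr1:79440027-79440276 on the minus strand for Scg2.
Chgb: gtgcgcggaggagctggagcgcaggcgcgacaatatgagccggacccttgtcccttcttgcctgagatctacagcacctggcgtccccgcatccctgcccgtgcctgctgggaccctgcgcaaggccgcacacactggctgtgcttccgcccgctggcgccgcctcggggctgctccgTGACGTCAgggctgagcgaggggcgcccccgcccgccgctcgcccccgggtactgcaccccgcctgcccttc
Scg2: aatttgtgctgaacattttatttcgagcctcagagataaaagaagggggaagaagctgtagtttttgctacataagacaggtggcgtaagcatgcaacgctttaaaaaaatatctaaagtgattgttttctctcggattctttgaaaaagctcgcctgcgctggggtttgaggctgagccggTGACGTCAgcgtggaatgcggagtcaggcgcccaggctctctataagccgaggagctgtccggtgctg
The element starts 72 bases before the start site in Chgb and 68 before it in Scg2, and 1.55% of all promoter windows hold it. The E-box CAGCTG was found in the windows of Chga and Resp18 and in 13.0% of all windows, and the E-box CATCTG in none of the 7 and in 14.4% of all. These motifs read the same or were searched on both strands, none of the matches overlapped another, and each is a match of letters, not a measured site. Among the controls, control 3 alone was high for Chgb, and controls 2 and 3 for Scg2. Whether the element bears on these values was not tested.

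Calca encodes calcitonin and, by alternative splicing, the calcitonin gene-related peptide that neuroepithelial bodies make, and 1 probe set does not tell these transcripts apart. It read 6.68, 6.82 and 6.87 in controls and 6.76, 6.68 and 6.64 in mutants (probe set 10567095). Control 1 lay at the level of mutant 2, so the groups overlapped. The log2 change was -0.10 (SE 0.06, 95% interval -0.25 to 0.05, limma adjusted p = 0.585). Calcb, its neighbour and close paralogue, differed by -0.07 (limma adjusted p = 0.644), and cross-hybridisation between the paralogues was not tested.

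Grp encodes gastrin-releasing peptide, the bombesin-like peptide of these cells. It read 8.89, 8.94 and 8.89 in controls and 8.80, 8.96 and 8.85 in mutants (probe set 10456353), and mutant 2 was the highest array. The log2 change was -0.04 with a 95% interval from -0.16 to 0.09 (limma adjusted p = 0.818). The interval bounds a change of this probe set more tightly than for most of the 9 genes.

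**Figure D2:**
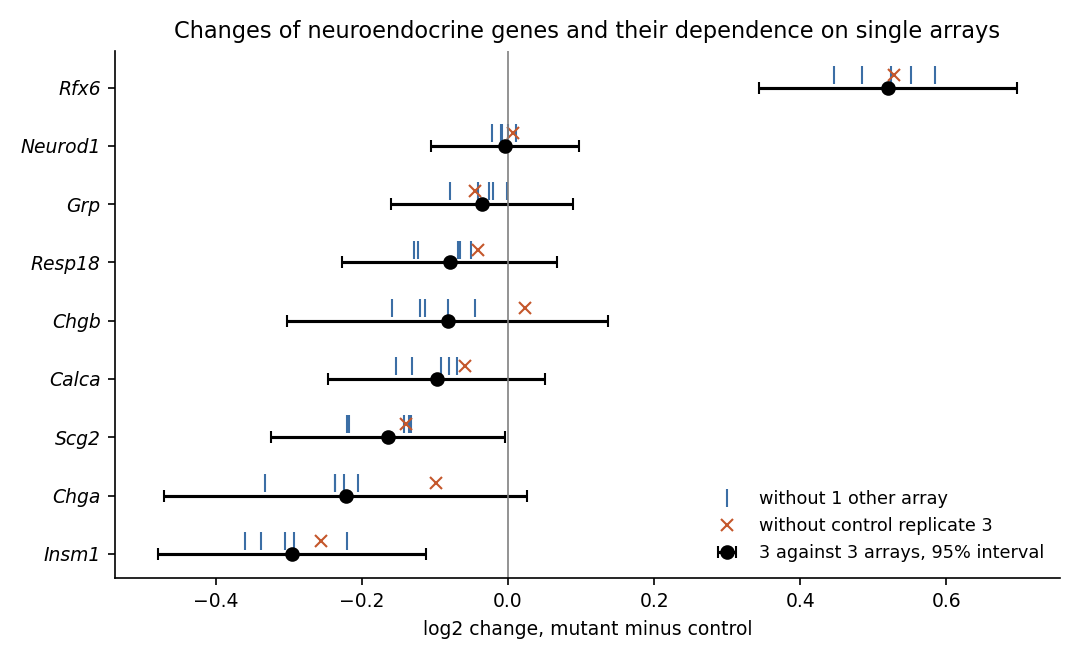
Log2 change of each gene, mutant minus control, with its 95% interval from limma (black), the values after leaving out 1 array other than control replicate 3 (blue ticks), and the value without control replicate 3 (orange crosses). Rfx6 lies apart on the right in every fit, Insm1 stays below 0 in every fit, and Chga and Chgb move towards or past 0 without control 3.

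As a group, 8 of the 9 genes had a negative change, beside 58.4% of all probe sets and 65.3% of the dimmest 30%. The median of the 9 changes was -0.08, beside -0.02 over all probe sets and -0.03 over the dimmest 30%. Without control 3, 6 of the 9 were below 0, beside 54.8% of all probe sets and 54.9% of the dimmest 30%. The median was then -0.04, beside -0.00986 over all probe sets. Without control 1 the median moved the other way, to -0.15. The median deviation of the 9 genes from their own 6-array means was -0.06, 0.06 and 0.13 in controls 1 to 3 and -0.04, -0.00884 and -0.10 in mutants 1 to 3. Control 1 therefore lay among the mutants, and the groups overlapped.

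Control 3 was the highest of the 6 arrays for 5 of the 9 genes (Insm1, Chga, Chgb, Calca and Resp18), where 28.0% of all probe sets had their highest value on that array. Several kinds of list moved with it, and others did not. The dimmest 30% of all probe sets had a median deviation of 0.05 in control 3 and of -0.03 to 0.01 on the other arrays. Of 11 gut and pancreatic hormone genes 9 were highest in control 3, with a median deviation of 0.14, as were 8 of the 13 other regulators, 11 of 21 granule genes and 8 of 14 peptide and amine genes. By contrast, control 3 was highest for 2 of 11 other neuroendocrine markers and for 3 of 9 receptors and receptor partners. It was highest for 1 of 7 Notch receptors, effectors and Rest, and for 0 of 9 epithelial markers. Of markers of peripheral neurons 12 of the 13 reported here were highest in control 3. Their mean log2 level was 7.70 in control 3, against 7.40 and 7.42 in controls 1 and 2 and 7.34 to 7.38 in mutants. Nefl, a neurofilament subunit named after its values were seen, read 8.06 in control 3 and between 7.23 and 7.40 elsewhere. Nefm, another subunit, read 7.15 in control 3 and between 6.82 and 7.06 elsewhere. Dbh read 7.44 in control 3 and between 6.48 and 6.63 elsewhere, so the excess differed in size between genes. Tubb3 was the neuronal marker not highest in control 3, with 6.57 in both control 2 and control 3.

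Of the 13 neuronal markers 0 passed between the groups in limma (2 before adjustment, at p under 0.05, beside 11.8% of all probe sets). Their median log2 change went from -0.13 to -0.04 without control 3. Tubb3, Elavl4 and Dbh lay among the dimmest 30% of probe sets, at percentiles 23.9, 25.4 and 26.4 of mean brightness. Of 7 glial markers, 4 were highest in control 3, with a mean level of 8.38 there and 8.28 to 8.33 on the other arrays. The part of neuronal RNA, or of a shift of dim probe sets in general, in the high granin values of control 3 was not tested.

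**Figure D3:**
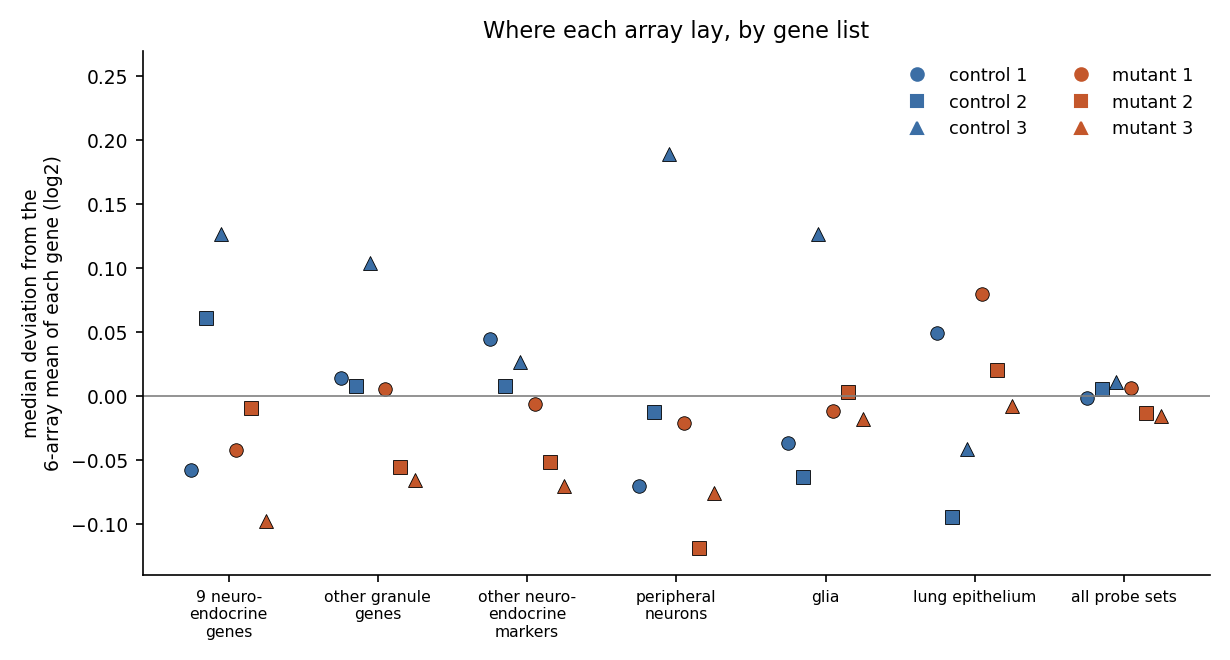
Median, over the genes of each list, of the deviation from the gene's own mean over the 6 arrays (log2), with 1 point per array. Control 3 (blue triangle) stands highest for the 9 neuroendocrine genes at 0.13 and for peripheral neurons at 0.19, and it is also highest for glia at 0.13, for the other granule genes at 0.10 and slightly so for all probe sets at 0.01. For the other neuroendocrine markers control 1 is highest at 0.05, with control 3 at 0.03. Epithelial markers do not place control 3 above the other arrays.

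Markers of other endocrine cells, some of which make the same products, gave no called change. Of 11 gut and pancreatic hormone genes 0 passed in limma (0 before adjustment, at p under 0.05, beside 11.8% of all probe sets). Their median was -0.04. Mean levels of that list were 6.87 to 7.10 in controls and 6.91 to 7.00 in mutants, and its dimmest member was Nts at 4.91. Gcg, the glucagon precursor, differed by -0.04 on the log2 scale (limma adjusted p = 0.872) while the endocrine factor Rfx6 rose. The same held for 7 thyroid and parathyroid markers (0 passed in limma, 0 before adjustment), with mean levels of 6.60 to 6.74 in controls and 6.62 to 6.70 in mutants and a dimmest member, Pth, at 4.55. The thyroglobulin gene Tg changed by -0.08 (limma adjusted p = 0.660). Of the 9 epithelial markers 0 passed in limma (1 at an unadjusted p under 0.05, beside 11.8% of all probe sets). Mean levels were 11.31 to 11.46 in controls and 11.39 to 11.46 in mutants. That 1 was Sftpc, higher in every mutant (log2 change 0.38, limma adjusted p = 0.2115), as for 7.83% of all probe sets. Cldn18 was lower in every mutant (-0.18, limma adjusted p = 0.4246), as for 10.1%.

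Among the wider neuroendocrine programme, 1 of the 59 genes reported here in 4 lists passed, the Notch ligand Dner, beside 0.774% of all probe sets. Dner, a transmembrane ligand used as a marker of pulmonary neuroendocrine cells, read 7.42, 7.35 and 7.38 in controls and 7.10, 7.08 and 6.97 in mutants. Every mutant lay below every control, as for 10.1% of all probe sets. The change was -0.33 on the log2 scale (SE 0.05, limma adjusted p = 0.0349), 1.26-fold lower. It was as large without control 3 (-0.33). The call was lost in each of the 6 fits without 1 array (limma adjusted p from 0.0831 to 0.126), with another prior (0.0541) and with repeated quantile normalization (0.0615) or cyclic loess (0.0691).

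The 11 such markers reported here had 8 members below 0, a median of -0.06, or -0.08 without control 3, and 4 members whose groups did not overlap, all lower in mutants, beside 10.1% of all probe sets. Before adjustment 4 of the 11 had a p under 0.05 in limma, beside 11.8% of all probe sets. The receptor tyrosine kinase gene Ret (log2 change -0.20, limma adjusted p = 0.313) and the Notch ligand gene Dll3 (-0.15, 0.342) were next by p. The ubiquitin hydrolase Uchl1 changed by 0.04 (0.872).

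Of 21 other granule, processing and exocytosis genes 0 passed in limma (6 before adjustment, at p under 0.05), beside 11.8% of all probe sets. Of the 21, 17 lay below 0, beside 58.4% of all, and the median was -0.12. Without control 3 these were 15, beside 54.8%, and -0.06. Pcsk1, the prohormone convertase that cuts precursors in granules, changed by -0.26 (limma adjusted p = 0.101) and Scg5, which encodes the chaperone of the related convertase Pcsk2, by -0.17 (0.223). The groups did not overlap for either, as for 5 of the 21 with mutants lower, beside 10.1% of all probe sets. Mutants were all higher for 1 of the 21, beside 7.83%. The changes of Pcsk1 and Scg5 kept their size without control 3, at -0.28 and -0.17. Cadps2, which primes granules for release, went the other way, by 0.34 on the log2 scale (limma adjusted p = 0.175).

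Of 14 other peptide and amine genes 0 passed in limma (1 before adjustment, at p under 0.05, beside 11.8% of all probe sets). Their median was -0.05. Ddc, the decarboxylase that makes serotonin and dopamine, came closest: it read 9.37, 9.16 and 9.13 in controls and 8.83, 8.75 and 8.89 in mutants, a log2 change of -0.39 (limma adjusted p = 0.0784). In the authors' deposited table Ddc and Pcsk1 have a q of 3.70% each and Dner one of 1.27%. These are under 5%, as for 1.72% of all probe sets. Of the 13 other regulators that are reported here 0 passed in limma (1 before adjustment, at p under 0.05, beside 11.8% of all probe sets). Mycl changed by 0.16, Gfi1 by -0.12 and Hes6 by 0.20 on the log2 scale, and the median of the 13 was -0.05.

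Genes that restrain the programme and those that receive its signals were not called. Of 7 Notch receptors, effectors and Rest, 0 passed in limma (1 before adjustment, at p under 0.05, beside 11.8% of all probe sets). Hey1 changed by 0.15, Hes5 by -0.13 and Rest, the repressor of neuronal genes, by -0.06. Of 9 receptors and receptor partners of the peptides from Grp and Calca 0 passed in limma (1 before adjustment, at p under 0.05, beside 11.8%). The calcitonin receptor Calcr changed by -0.31 (limma adjusted p = 0.121), with mutants all below controls, as for 10.1% of all probe sets. Grpr, the receptor of gastrin-releasing peptide, changed by -0.02 (0.946), and Calcrl, which forms the receptor of calcitonin gene-related peptide, by 0.04 (0.895).

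**Figure D4:**
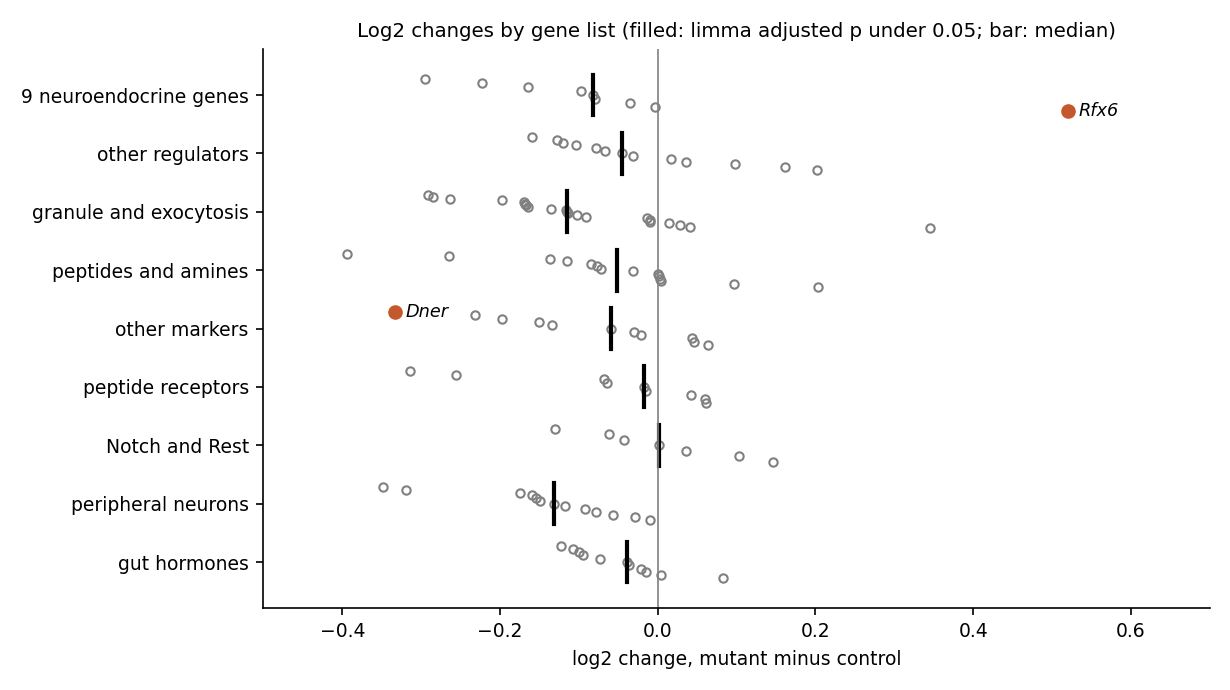
Log2 change, mutant minus control, of each gene reported here (circles) in the 9 neuroendocrine genes and 8 companion lists, with the list median as a black bar. Filled circles passed a limma adjusted p under 0.05, and they are Rfx6 on the right and Dner on the left.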

How the data were processed

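Total RNA (100 ng per the labels' protocols) from 6 whole lungs was amplified, biotin-labelled and hybridised to arrays. The deposited log2 expression values were made with RMA, per the submitters' processing notes. Array type, genome build, annotation and software version: not given in the sources used here. In 2 deposited tables the control and mutant values were the same for all 28815 probe sets. The authors' deposited comparison holds a signed fold, a difference score, a p-value and a q-value in percent, per the file headers, by an unnamed test.

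Symbols were updated through RefSeq accessions, gene IDs and symbols of the GRCm38.p6 gene table, used for names, chromosomes and gene order; 25528 probe sets had a symbol. The probe set with the highest mean stands for a gene. Mutant and control arrays were compared with limma 3.58.1 in R 4.3.3 (lmFit, eBayes, 2-sided, no covariate, no filter, Benjamini-Hochberg over 28815 probe sets). The fit was tested on simulated data. Precision is limited by 3 arrays per group; a probe set's median SD within groups was 0.07. By rule the genes to name were the 9 genes with the 3 most like the leading one, the deleted genes, and, of each companion list, those past the threshold, the 3 with the smallest p and the best known marker; the text gives part of the last 2 kinds. The members and lists were chosen with earlier results of these data known. Of the companion lists, 3 genes are not reported here, for a reason unrelated to their values, and counts and medians are over the others. Alternatives were a replicate block, another prior, a filter on dim probe sets, 3 normalizations, array weights, 1 probe set per symbol, a looser threshold and leaving out each array. Promoters are RefSeq sequences, with chromosome 18 left out of the search.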

Additional observations from a re-analysis of the deposited data

How the results depend on the processing

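The count of 1 of the 9 genes that rose (Rfx6) became 0 with the replicate number as a block and with the filter at the 30th percentile, which removes Rfx6 itself with 5 others, and ranged from 0 to 1 when single arrays were left out. The median of the 9 changes became -0.22 over the 3 genes that the filter keeps. The 1 companion gene that fell (Dner) became 0 with the replicate block, with cyclic loess and in every fit without 1 array (range 0 to 0), 6 with array weights and 2 at an adjusted p under 0.1; with the trended robust prior and with repeated quantile normalization the count of 1 was Ddc (limma adjusted p = 0.0378 and 0.0385) and not Dner (0.0541 and 0.0615); array weights also gave 3 that rose. Over all probe sets the 223 calls became 7 with the block, 1748 with array weights and 360 at 0.1, and ranged from 11 to 152 without single arrays (18 without control 2, 11 without mutant 2). The array weights put 9.20 on control 2 and under 1 on each other array, and their estimate did not converge. The numbers in the titles are not known to pair the arrays. Deviations of same-numbered arrays correlated at -0.19, 0.04 and -0.19, and control 1 correlated best with mutant 3 (0.21). Deviations from the mean of 3 arrays constrain one another, so these correlations cannot decide whether the arrays are paired. Among the 9 genes, Rfx6 had an adjusted p of 0.138 with the block (limma), Chgb turned positive without control 3, and Neurod1, near 0, changed sign in 5 of 14 fits, none of them called. Foxp4 had an adjusted p of 0.130 with the block (limma), and Foxp1 passed with the trended prior (0.0293) and array weights (0.0127). Insm1 passed in 0 of 15 alternatives (limma adjusted p from 0.0759 to 0.438). Dim probe sets limit what can be seen for 6 of the 9 genes.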

Other observations

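Of the 36 measured protein-coding genes that lie 1 or 2 places from the 9 neuroendocrine genes in the gene order of GRCm38.p6, 0 passed (limma adjusted p of 0.0605 or more). The smallest p belonged to Ap1s3, an adaptor complex subunit next to Scg2, named here after its values were seen. It read 9.38, 9.34 and 9.12 in controls and 9.67, 9.69 and 9.69 in mutants, a rise in level of 0.41 log2 units that did not pass (limma adjusted p = 0.0605), opposite in sign to that of Scg2. Wdfy1, the next measured gene along chromosome 1, also lay higher in every mutant than in any control, as for 7.83% of all probe sets. Its log2 change was 0.28 (limma adjusted p = 0.210). Ptprn, which encodes a transmembrane protein of dense-core granules and lies next to Resp18, changed by -0.29 (limma adjusted p = 0.259). For Ptprn every mutant lay below every control, as for 10.1% of all probe sets. The change of Resp18 was -0.08.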
